A study of Homo sapiens with 6 samples.

Results

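The replication-dependent histone genes are the gene copies that supply histones H1, H2A, H2B, H3 and H4 while DNA is being copied. Loci were taken whenever any gene name of the locus began with HIST1H, HIST2H, HIST3H or HIST4H followed by a histone class, which gave 86 loci of 62828 in the table. Of these, 51 had a mean of at least 1 FPKM (fragments per kilobase of transcript, scaled to library size) over the 6 libraries, out of 12838 loci of any kind at that level. These 51 loci carry all ratios given here. The other 35 are accounted for with the levels.

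Both conditions were K562, a single established line of chronic myelogenous leukemia cells. Cells received 300 nM of siRNA against HNRNPU or control oligos. HNRNPU is a nuclear RNA-binding protein, and the series title asks about its part in keeping lncRNAs in the nucleus. The 6 groups are knockdown whole-cell, control whole-cell, knockdown nuclear, control nuclear, knockdown cytosolic and control cytosolic RNA, with 1 library each. Per the labels' protocols, ribosomal RNA was depleted, which does not require a poly(A) tail, and the libraries were strand-specific. The protocols name more than one service provider without tying each library to one. With 1 library per group there is no replicate check, no test and no p-value, so every difference describes these libraries.

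Most replication-dependent histone mRNAs end in a short conserved stem-loop in place of a poly(A) tail. The stem-loop binding protein SLBP holds this end during processing, export and translation, and the mRNAs are degraded quickly when DNA synthesis stops. Some members can also give longer, polyadenylated transcripts. The genes lie in clusters, mostly without introns, and many H2A and H2B genes are arranged head to head around a shared promoter.

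The stem-loop is the feature that marks these mRNAs, so examples of each class are shown from GENCODE release 29 transcripts (build GRCh38, 5′ to 3′ on the transcript). Capitals mark the 16 bases of the histone stem-loop consensus, in which some positions may hold any base.
HIST1H4J (chr6:27824454-27824479, plus strand): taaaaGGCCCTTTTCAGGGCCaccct
HIST2H4A (chr1:149833027-149833052, plus strand): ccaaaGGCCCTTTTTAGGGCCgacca
HIST2H2AA4 (chr1:149851569-149851594, plus strand): caaaaGGCTCTTTTCAGAGCCaccca
HIST1H2BD (chr6:26158582-26158607, plus strand): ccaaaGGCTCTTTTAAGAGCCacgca
HIST1H3E (chr6:26225591-26225616, plus strand): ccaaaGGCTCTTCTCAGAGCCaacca
HIST2H2BC (chr1:149850297-149850322, minus strand): ccaaaGGCTCTTTTCAGGGCCattta

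The consensus was found on the transcript's strand in transcripts of 29 of the 53 member genes behind the 51 loci (54.7%), and in 0.223% of 83047 other protein-coding transcripts. A transcript model that stops at the coding end cannot hold it, so a missing match says only that these letters are not in the annotated transcript. The match of HIST1H2BN lies at chr6:27865773-27865798, far from its own promoter at 27838319 to 27838618. It lies shortly after the promoter of the H2A gene HIST1H2AL (27865067 to 27865366), so it may not be an H2B stem-loop. It is counted under H2B here. The classes differed in the core. All 7 H4 genes with a match had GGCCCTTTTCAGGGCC (4 genes) or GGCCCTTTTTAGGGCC (3 genes). The H2A, H2B and H3 matches began with GGCTC, and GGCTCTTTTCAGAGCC was their commonest core (6 H2A, 7 H2B and 3 H3 genes).

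The libraries were uneven in depth. Steps between low values gave the worth of a fragment, so 1 FPKM over 1 kilobase stood for 19.2 fragments in knockdown and 23.7 in control whole-cell RNA, 39.9 against 19.9 in nuclear RNA, and 15.1 against 13.6 in cytosolic RNA. Between 88.5% and 91.0% of the low values used came out within 0.05 of a whole fragment. The targeted gene HNRNPU was listed as a locus merged with HNRNPU-AS1, so its values are not of HNRNPU alone. That locus had 55.3 FPKM in knockdown against 129 in control whole-cell RNA, 63.7 against 163 in nuclear RNA and 34.9 against 158 in cytosolic RNA. The nuclear RNA MALAT1 had 2352 FPKM in nuclear and 106 in cytosolic knockdown RNA, and 1984 and 141 in control RNA. Of the K562 markers, GATA1 lay between 26.2 and 55.9 FPKM over the 6 libraries. Among markers of other cell types, MPO and ALB stayed at 0.0588 FPKM or less, whereas COL1A2 reached 18.3 and EPCAM 23.7. Their part in the histone values was not tested.

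Histone mRNA was abundant and came from many loci. The 51 loci summed to 6835 FPKM in knockdown and 5890.1 in control whole-cell RNA, 7885 against 7791 in nuclear RNA, and 18757 against 16007 in cytosolic RNA. A mean of 10 FPKM or more was reached by 49 of the 51, and HIST1H1T, a testis-type H1, and HIST1H3E lay between 1 and 10. The highest means were those of HIST1H4J (909 FPKM), HIST1H1C (659), HIST1H2BK (572), HIST2H2AA4 (538) and HIST1H3B (526), which puts every core class and H1 among the top 5.

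Of the 35 loci under the minimum, 16 were listed at 0 in every library and 19 were above 0 somewhere. Those at 0 include HIST1H3I, HIST1H4F, HIST1H4L and HIST1H2BI. A listed 0 in this kind of table can be a failed estimate, so no absence is read from it. HIST1H1B, a linker histone gene, had a mean of 0.0535 FPKM, with 3 fragments or fewer in any library. HIST4H4, the lone H4 gene on chromosome 12, had 0.0733 FPKM in knockdown nuclear RNA and 0 in the other 5 libraries. Just under the minimum was HIST1H2BE with a mean of 0.859 FPKM, and just above it HIST1H3E with 1.44. By GENCODE type 17 of the 86 are pseudogenes, of which HIST2H2BC was the 1 that passed.

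**Figure D1:**
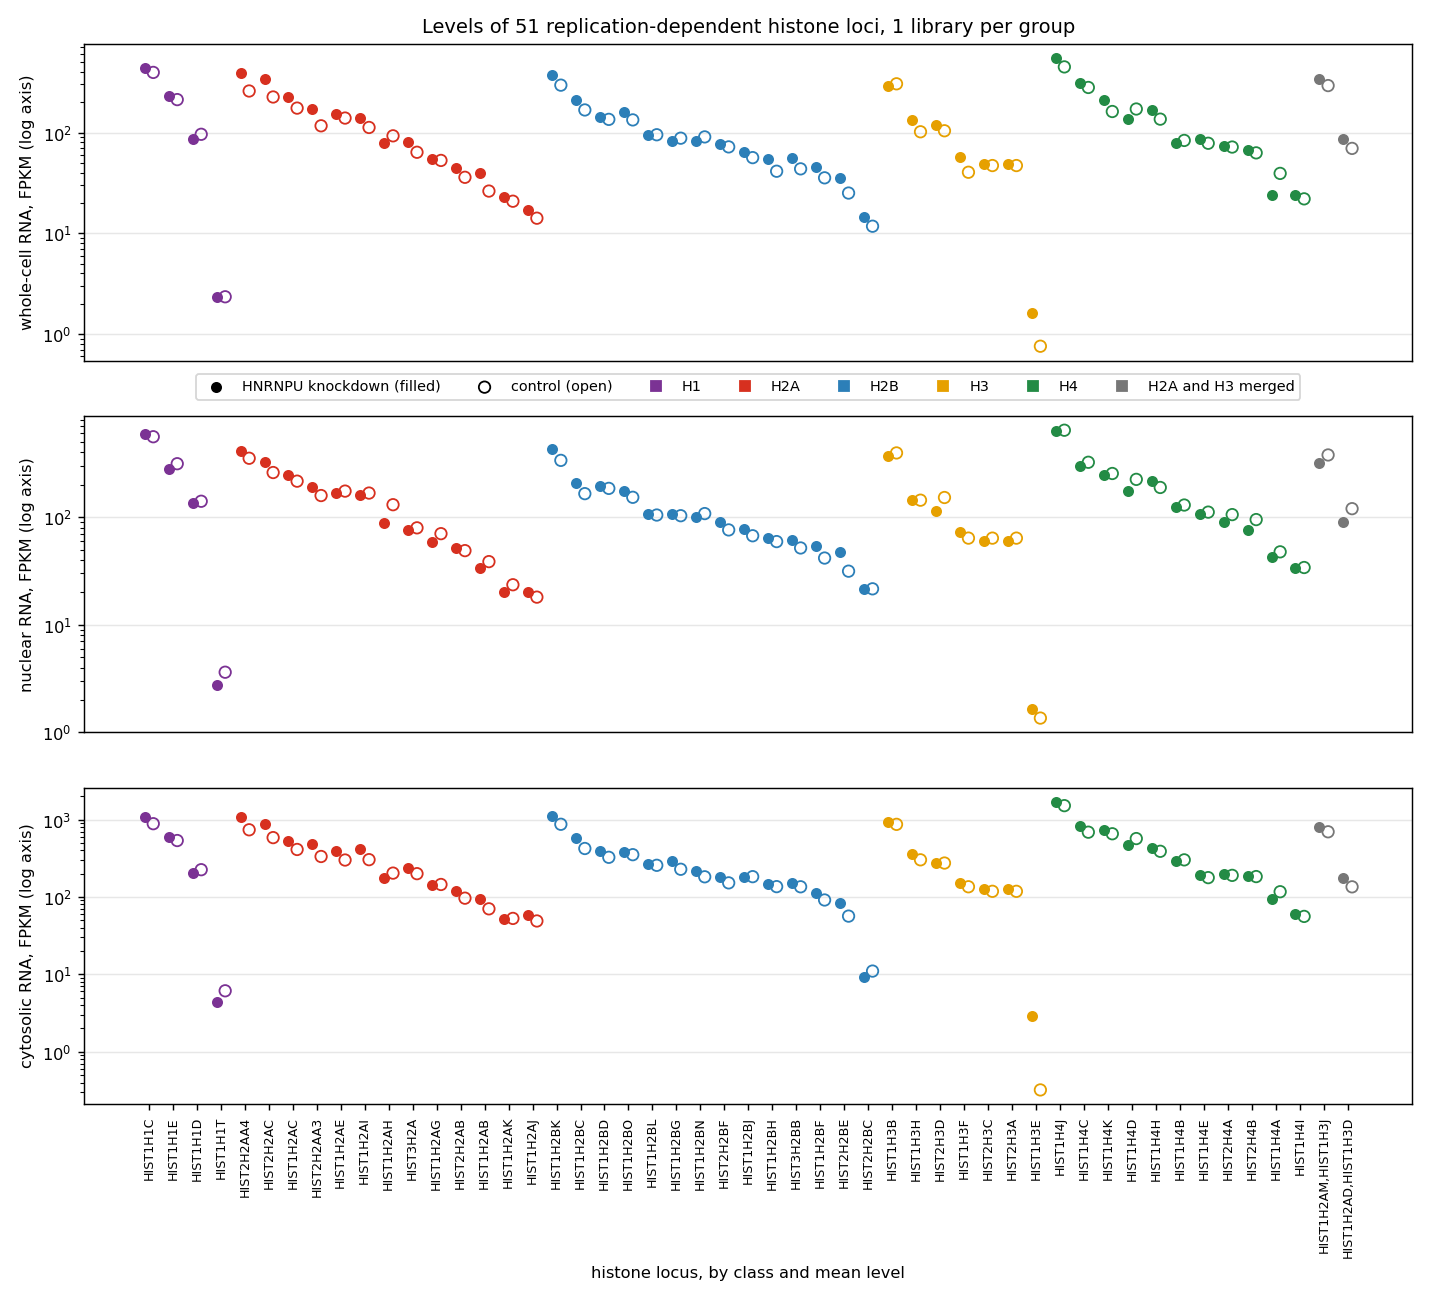
FPKM on log axes of the 51 histone loci in whole-cell, nuclear and cytosolic RNA, ordered by class and mean level, with knockdown as filled points left of the open control points (1 library per point). Within a class the loci keep much the same order in all 6 libraries, and the cytosolic level is the highest in both conditions for all loci but HIST2H2BC and HIST1H3E.

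**Figure D2:**
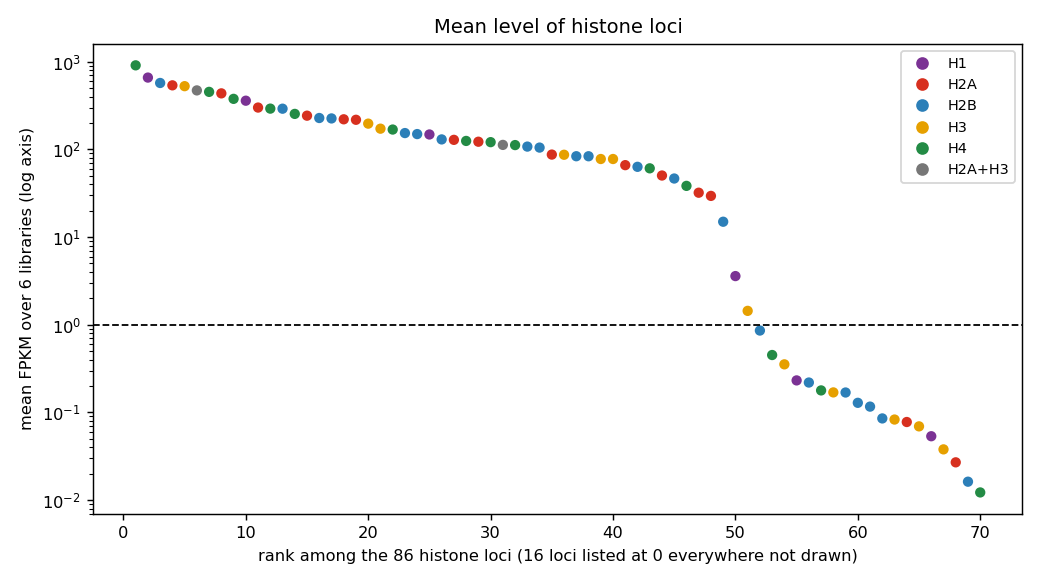
Mean FPKM over the 6 libraries (log axis) of the 70 histone loci above 0, by rank and coloured by class, with the minimum of 1 FPKM as a dashed line. The first 49 loci lie at 15.0 FPKM or more, and a drop follows to the 2 loci between 1 and 10.

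Ratios are differences of log2(FPKM + 0.1). After knockdown the histone loci were higher in whole-cell and cytosolic RNA and nearly level in nuclear RNA. The median log2 knockdown/control was 0.18 in whole-cell RNA (95% interval of the median over loci 0.11 to 0.31), against 0.06 for all loci. In nuclear RNA it was -0.03 (-0.06 to 0.09) against 0.03, and in cytosolic RNA 0.18 (0.12 to 0.25) against 0.03. These intervals cover the spread between loci, not between cultures, and near-identical genes share fragments.

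By count, 42 of 51 loci were above 0 in whole-cell RNA, where 60.7% of all loci were. Scaling moved this count, to 36 of 51 with libraries set to the same protein-coding median (48.2% of all loci) and to 37 of 51 with every library given the same total, mitochondrial and small RNAs set aside (49.8%), with histone medians of 0.10 and 0.11 and medians of -0.01 and 0.00 over all loci. In nuclear RNA 24 were above 0, where 54.0% of all loci were, so nuclear RNA did not stand apart. In cytosolic RNA 40 were above 0, against 54.3% of all loci. Differences were small. At least 2-fold higher was 1 locus in whole-cell RNA (1.36% of all loci) and 1 in cytosolic RNA (2.62%), both times HIST1H3E, and none was in nuclear RNA (1.04%). None was at least 2-fold lower, be it in whole-cell (1.29%), nuclear (1.50%) or cytosolic RNA (2.63%). HIST1H3E had 1.63 FPKM in knockdown and 0.757 in control whole-cell RNA, 1.66 against 1.36 in nuclear RNA, and 2.92 against 0.321 in cytosolic RNA. Its control cytosolic value stands for 1 fragment, so its ratios rest on few fragments.

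In bulk RNA a different share of cells in S phase and a different amount of histone mRNA per cell cannot be told apart. The S-phase list written for this comparison gives a value to set beside the histones. Its 22 genes, such as PCNA, the MCM helicase genes and thymidine kinase TK1, had a median ratio of 0.05 in the whole-cell libraries, -0.02 in the nuclear and 0.02 in the cytosolic ones. Of them 13 were above 0 in whole-cell RNA, where 60.7% of all loci were. PRIM1 and FEN1 were listed only as loci merged with NACA and FADS2, so those values are not of an S-phase gene alone.

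**Figure D3:**
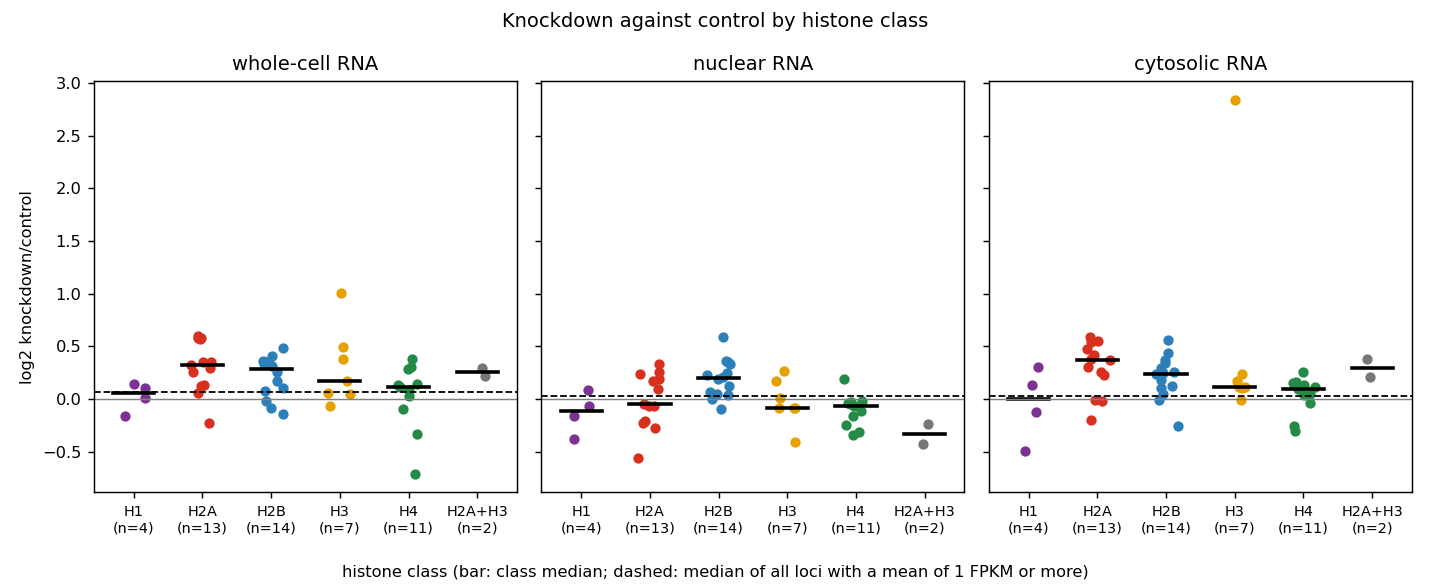
log2 knockdown/control of the 51 histone loci by class in 3 preparations, 1 point per locus, with class medians as bars and the median of all loci as a dashed line. H2A and H2B lie highest in whole-cell and cytosolic RNA, H2B alone is mostly above 0 in nuclear RNA, and the single point at 2.84 is HIST1H3E.

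H1, the linker histone that binds the DNA between nucleosomes, had the class medians nearest 0 in whole-cell and cytosolic RNA, but not in nuclear RNA. HIST1H1C (chromosome 6, 26055968 to 26056699 on hg19), which also gives polyadenylated transcripts, had 435 FPKM in knockdown and 395 in control whole-cell RNA, 594 against 558 in nuclear RNA, and 1091 against 883 in cytosolic RNA. It was a little higher after knockdown in each preparation, with log2 ratios of 0.14, 0.09 and 0.30. HIST1H1E had 228 against 212 FPKM in whole-cell RNA, 279.5 against 313 in nuclear RNA, and 587 against 535 in cytosolic RNA. Here nuclear RNA went the other way (-0.16, against 0.11 and 0.13). HIST1H1D had 85.7 against 96.0 FPKM in whole-cell RNA, 135 against 140.4 in nuclear RNA, and 206 against 225 in cytosolic RNA, lower in all 3. Over the 4 H1 loci the medians were 0.06, -0.11 and 0.00.

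H2A, which pairs with H2B in the nucleosome, had the highest class medians in whole-cell (0.32) and cytosolic RNA (0.37). There 12 and 10 of 13 loci were above 0 (60.7% and 54.3% of all loci). In nuclear RNA the H2A median was -0.04, with 6 of 13 above 0 (54.0% of all loci). HIST2H2AA4 (chromosome 1, 149822643 to 149823191) had 386 FPKM in knockdown and 258 in control whole-cell RNA, 415 against 352 in nuclear RNA, and 1078 against 737 in cytosolic RNA. HIST2H2AC (chromosome 1, 149858525 to 149858961) had 337 against 225 FPKM, 328 against 259, and 880.4 against 584 in the same preparations. HIST1H2AC, on chromosome 6 and also a source of polyadenylated transcripts, had 223 against 175 FPKM, 247 against 216, and 529.5 against 410.4. All 3 were higher after knockdown in each preparation, most in whole-cell and cytosolic RNA, where HIST2H2AA4 had log2 ratios of 0.58 and 0.55 and HIST2H2AC 0.58 and 0.59. HIST2H2AA4 shares 96.8% of its 100-base windows with HIST2H2AA3 or HIST2H2AC, so how the fragments were divided among these copies is uncertain.

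Other H2A loci differed between the preparations. HIST1H2AB (chromosome 6, 26033320 to 26033796) had 39.8 FPKM in knockdown and 26.2 in control whole-cell RNA, 33.4 against 38.6 in nuclear RNA, and 93.9 against 70.2 in cytosolic RNA. Its log2 ratios were 0.60, -0.21 and 0.42, the first being the highest of any member at 5 FPKM or more. HIST1H2AH had 79.4 against 92.7 FPKM in whole-cell RNA, 88.4 against 130.4 in nuclear RNA, and 177 against 203 in cytosolic RNA. It was the 1 H2A locus lower in all 3 preparations, and at -0.56 the lowest member in nuclear RNA. HIST1H2AI had 140.1 against 112 FPKM, 162 against 167, and 421 against 303, which is higher in whole-cell and cytosolic RNA with nuclear RNA nearly level. HIST1H2AJ, which shares 80.9% of its windows with it, had 16.8 against 14.1 FPKM, 20.3 against 18.1, and 58.6 against 48.9.

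H2B was the class that was higher in all 3 preparations. Class medians reached 0.28 (whole-cell), 0.20 (nuclear) and 0.24 (cytosolic), with 11, 13 and 12 of 14 loci above 0. Of all loci, 60.7%, 54.0% and 54.3% were above 0 in these preparations. HIST1H2BK had 375 FPKM in knockdown and 295 in control whole-cell RNA, 433 against 337 in nuclear RNA, and 1125 against 868 in cytosolic RNA. HIST1H2BC had 211 against 167 FPKM, 208 against 165, and 572 against 422. HIST2H2BE (chromosome 1, 149856010 to 149858232) had 35.2 against 25.1 FPKM, 47.4 against 31.5, and 83.6 against 56.5. Its log2 ratios were 0.49, 0.59 and 0.56. HIST1H2BK and HIST2H2BE are known to give polyadenylated transcripts.

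At least 1.25-fold higher in every preparation were 4 members, namely HIST2H2AC, HIST1H2BK, HIST1H2BC and HIST2H2BE, while 1.44% of all loci were. None of the members was at least 1.25-fold lower in every preparation (1.35% of all loci). HIST1H2BD, which has a polyadenylated form too, differed less in whole-cell and nuclear RNA, with 142 FPKM in knockdown and 135 in control whole-cell RNA, 194 against 185 in nuclear RNA, and 387 against 325 in cytosolic RNA. HIST1H2BF had 45.7 against 35.5 FPKM, 53.3 against 41.7, and 112 against 91.3. HIST1H2BJ had 63.6 against 56.4 FPKM, 77.4 against 67.1, and 182 against 183. HIST3H2BB, on chromosome 1, had 55.7 against 43.6 FPKM, 61.5 against 51.7, and 154 against 135. These 3 were higher in whole-cell and nuclear RNA, and HIST1H2BJ was level in cytosolic RNA.

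H3, which forms the core tetramer with H4, had medians of 0.18, -0.08 and 0.12 over 7 loci. HIST1H3B had 290.5 FPKM in knockdown and 304 in control whole-cell RNA, 371 against 395 in nuclear RNA, and 930.2 against 866 in cytosolic RNA, differences of at most 0.10 on the log2 scale. HIST1H3H had 133 against 102 FPKM, 145 against 144, and 356 against 302, and so differed in whole-cell and cytosolic RNA. HIST2H3D (chromosome 1, 149784826 to 149785236) had 118 against 104 FPKM, 114 against 152, and 272 against 274, with nuclear RNA lower at -0.41. HIST2H3A and HIST2H3C were listed at the same 48.8 FPKM in knockdown and 47.0 in control whole-cell RNA. All their windows are shared, so they count here as loci but hold 1 measurement.

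H4 was lower in nuclear RNA at 10 of 11 loci (median -0.06), where 54.0% of all loci were above 0. The median estimated error of a nuclear ratio from fragment counting was 0.06 over the 51 loci. In whole-cell and cytosolic RNA the H4 medians were 0.11 and 0.09, with 8 of 11 above 0 in both (60.7% and 54.3% of all loci). HIST1H4J (chromosome 6, 27791884 to 27792257) had 544 FPKM in knockdown and 448 in control whole-cell RNA, 630.2 against 641 in nuclear RNA, and 1681 against 1511 in cytosolic RNA. HIST1H4C had 307 against 280.0 FPKM, 299 against 323, and 822 against 686. HIST1H4K, all of whose windows are shared with HIST1H4J, had 211 against 162 FPKM, 248 against 254, and 733 against 655. These 3 were higher in whole-cell and cytosolic RNA and slightly lower in nuclear RNA. With 1 length correction for all libraries, applied to compact histone loci alone, only 7 of 11 H4 loci were below 0 in nuclear RNA.

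Of the 11 H4 loci, HIST1H4A, HIST1H4D and HIST1H4B were lower in all 3 preparations. HIST1H4A (chromosome 6, 26021907 to 26022278) had 24.0 FPKM in knockdown and 39.3 in control whole-cell RNA, 42.6 against 47.6 in nuclear RNA, and 94.6 against 117 in cytosolic RNA. HIST1H4D (chromosome 6, 26188938 to 26189304) had 136 against 171 FPKM, 177 against 224, and 475 against 568. The whole-cell log2 ratios of HIST1H4A and HIST1H4D, -0.71 and -0.34, were the lowest of all members at 5 FPKM or more. Lower in all 3 preparations were 5 members (13.2% of all loci), which were HIST1H4A, HIST1H4D, HIST1H4B, HIST1H1D and HIST1H2AH. Higher in all 3 were 20 (24.6% of all loci), among them 9 H2B and 6 H2A loci.

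The clusters were compared next. On chromosome 6, 37 HIST1 loci lie between 26021907 and 27861669, and on chromosome 1, 12 HIST2 loci lie between 149754245 and 149859466 and 2 HIST3 loci between 228645065 and 228646259. In whole-cell RNA all 14 chromosome 1 loci were above 0, with a median of 0.30, and 28 of 37 on chromosome 6, with a median of 0.14. Near-identical copies on chromosome 1, such as HIST2H3A and HIST2H3C, are not separate measurements. Over both chromosomes, all 12 loci with 50% or more of their windows shared were above 0, and 30 of the 39 others were (60.7% of all loci). Under scaling to the protein-coding median the chromosome 1 count was 11 of 14. Nuclear medians were 0.05 on chromosome 1 and -0.03 on chromosome 6, and cytosolic medians 0.20 and 0.16. The classes are not spread evenly. The 5 H2A loci on chromosome 1 had medians of 0.57, 0.24 and 0.54 in whole-cell, nuclear and cytosolic RNA, and the 8 on chromosome 6 had 0.19, -0.13 and 0.31. For H3 and H4 the medians ran the other way in whole-cell RNA, on few loci. On chromosome 1 they were 0.05 (3 loci) and 0.06 (2 loci), against 0.44 (4 loci) and 0.13 (9 loci) on chromosome 6. The H3 loci include HIST1H3E, with few fragments, and HIST2H3A and HIST2H3C, which hold 1 measurement. Taken as log2 knockdown/control of summed FPKM, H3 had 0.12 on chromosome 1 and 0.11 on chromosome 6, and H4 0.06 and 0.15.

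**Figure D4:**
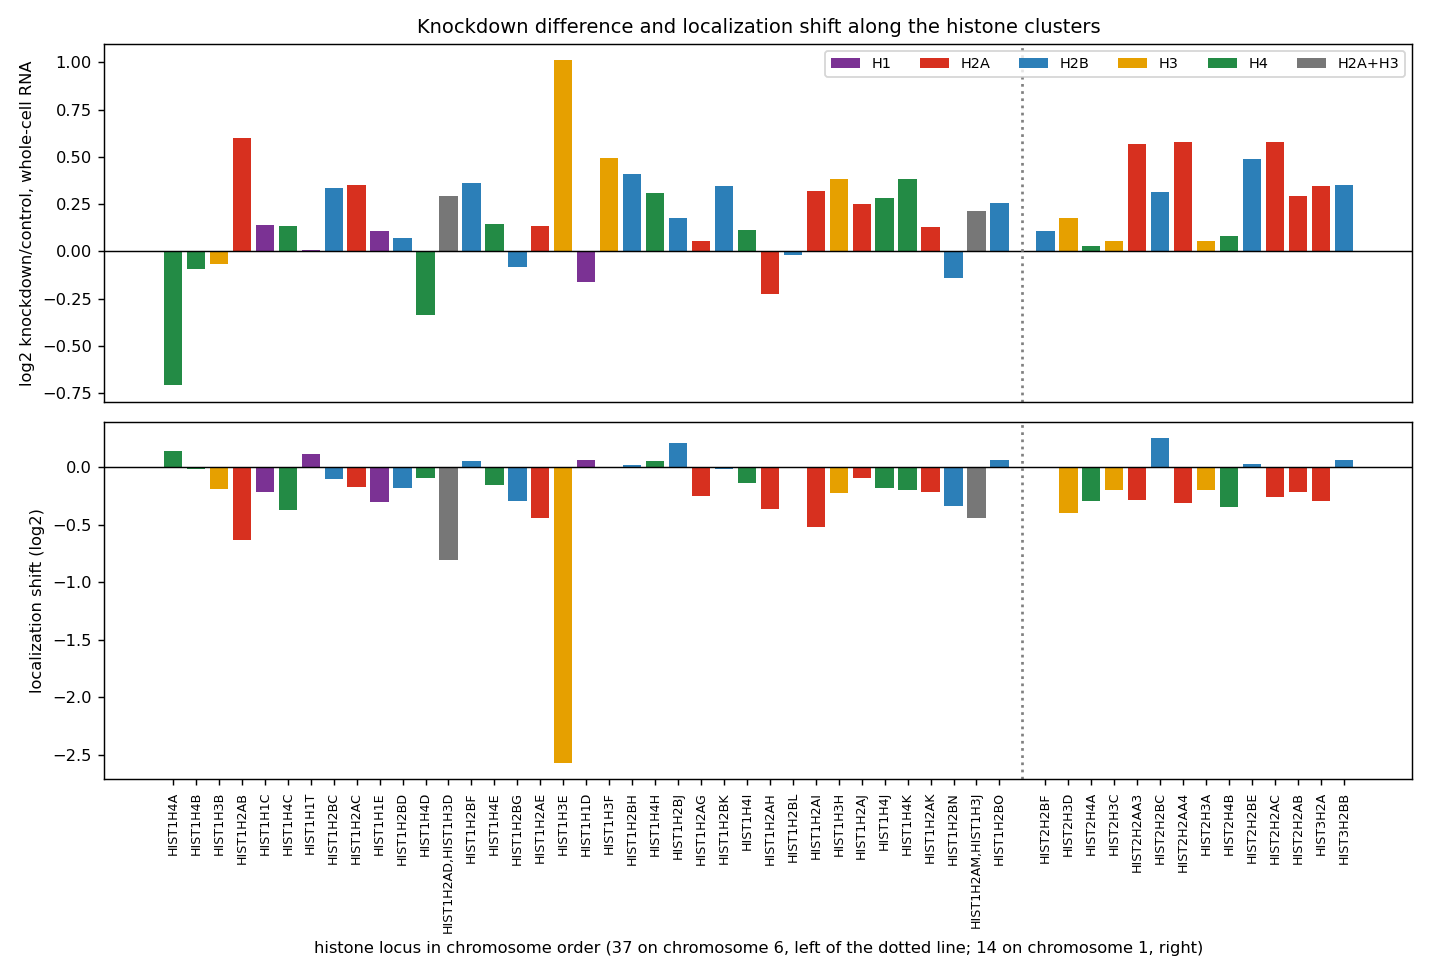
log2 knockdown/control in whole-cell RNA (top) and the localization shift (bottom; log2 nuclear/cytosolic in knockdown minus control) of 51 histone loci in chromosome order, coloured by class, with chromosome 6 left and chromosome 1 right of the dotted line. On chromosome 1 all 14 whole-cell bars are above 0, and signs are mixed along chromosome 6.

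Head-to-head genes were a further unit of the clusters. Of 17 such pairs within 1000 bases, 11 had both loci at 1 FPKM or more, of which 9 joined an H2A with an H2B locus and the other two a merged H2A and H3 locus with an H2B locus. Gaps ran over 189 to 303 bases. In whole-cell RNA 7 of the 11 pairs had the same sign. As 42 of the 51 loci were above 0, a shared sign is common among them, and nothing particular to the pairs is read from this count. The HIST2H2BE and HIST2H2AC pair, 292 bases apart, was higher in knockdown on both sides in every preparation. By contrast HIST1H2BK was higher in knockdown in all 3 preparations and its partner HIST1H2AH, 241 bases away, lower in all 3.

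The promoter between HIST2H2BE and HIST2H2AC is shown because its partners differed in the same direction, and that of HIST1H4J for the highest H4 locus (RefSeq, GRCh38.p14, 250 bases before to 50 after the start). Capitals mark the TATA box TATAAA, the CCAAT box or the octamer motif ATTTGCAT on either strand.
HIST2H2AC promoter (chr1:149886668-149886967, plus strand): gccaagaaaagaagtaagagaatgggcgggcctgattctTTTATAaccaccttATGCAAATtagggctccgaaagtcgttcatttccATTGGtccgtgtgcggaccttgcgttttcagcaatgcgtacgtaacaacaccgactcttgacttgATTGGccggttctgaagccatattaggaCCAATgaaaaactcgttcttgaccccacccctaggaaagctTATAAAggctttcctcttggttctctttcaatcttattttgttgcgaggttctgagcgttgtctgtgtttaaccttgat
HIST1H4J promoter (chr6:27823842-27824141, plus strand): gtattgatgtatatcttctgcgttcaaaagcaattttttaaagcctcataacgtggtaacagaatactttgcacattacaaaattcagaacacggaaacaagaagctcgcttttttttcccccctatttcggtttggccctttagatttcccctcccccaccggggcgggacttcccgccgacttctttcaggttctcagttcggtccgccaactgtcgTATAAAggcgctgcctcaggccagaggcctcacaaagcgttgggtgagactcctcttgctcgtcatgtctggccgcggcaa

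Promoters were matched for 45 of the 53 genes. CCAAT was found in 37 of them (82.2%) and in 34.6% of 35116 RefSeq promoters, and the classes were split. All 4 H1, 14 H2A, 10 H2B and 8 H3 promoters held it, against 1 of 9 for H4. TATAAA was found in 31 of 45 (68.9%, against 11.5% of all promoters). The octamer ATTTGCAT was found in 15 of 45 (33.3%, against 1.77%), namely in 9 of 14 H2A and 6 of 10 H2B promoters and in none of H1, H3 or H4. These matches are letters in a window and say nothing of which factor binds.

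Histone mRNAs lay more toward the cytosol than the typical locus in both conditions. The median log2 nuclear/cytosolic ratio was -1.22 (-1.30 to -1.09) in knockdown and -1.04 (-1.13 to -0.88) in control cells, against -0.47 and -0.44 for all loci. Below 0 were 50 of 51 loci in knockdown (66.8% of all loci) and 49 in control cells (64.9% of all loci). At least 2-fold lower in the nucleus were 40 in knockdown (28.4% of all loci) and 26 in control cells (29.1%). These absolute ratios depend on library scaling. Giving every library the same total, with mitochondrial and small RNAs set aside, moved the all-locus median to 0.71 in knockdown and 0.78 in control cells, and the histone median to -0.01 and 0.21. Relative to all loci, the histone median was -0.75 in knockdown and -0.60 in control cells as deposited, and -0.73 and -0.57 with equal totals. The gap depends on which loci it is set against. At a minimum mean of 5 FPKM it was -0.54 in knockdown and -0.34 in control cells, and with no minimum -1.19 and -0.85. Protein-coding loci alone had medians of -0.61 in each condition. Whole-cell FPKM was below both fractions at 42 of 51 loci in knockdown (48.4% of all loci) and 48 of 51 in control cells (49.9%), so the 3 preparations share no absolute scale.

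Among H1, H2A, H2B, H3 and H4, the linker histone class H1 was nearest to the median of all loci, with class medians of -0.75 in knockdown and -0.71 in control cells, and the core classes H2A, H2B, H3 and H4 lay between -1.38 and -1.09 in knockdown and between -1.17 and -0.89 in control cells. Among members at 5 FPKM or more, HIST1H2BJ (-1.23 in knockdown, -1.44 in control), HIST1H2AJ (-1.52 and -1.43) and HIST3H2BB (-1.32 and -1.39) were the most cytosolic in the control. HIST2H2BC, a pseudogene (chromosome 1, 149821760 to 149822339 on hg19), was the clear exception. It had 14.6 FPKM in knockdown and 11.8 in control whole-cell RNA, 21.6 against 21.6 in nuclear RNA, and 9.22 against 11.01 in cytosolic RNA. Its ratios of 1.22 in knockdown and 0.96 in control cells made it the single member above 0 in both conditions. The merged HIST1H2AD and HIST1H3D locus and HIST1H2AH followed in the control with -0.17 and -0.64.

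**Figure D5:**
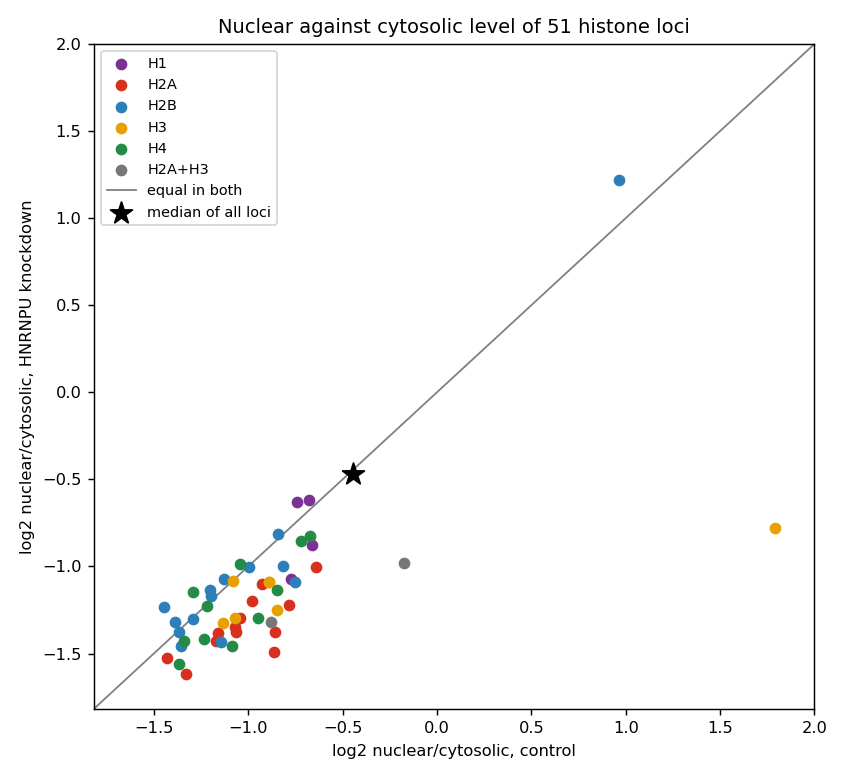
log2 nuclear/cytosolic ratio of 51 histone loci in knockdown (vertical axis) against control (horizontal axis), coloured by class, with the diagonal of equal ratios and the median of all loci as a star. Of the loci, 40 lie below the diagonal, HIST2H2BC is alone at the upper right, and the H3 point at 1.79 on the horizontal axis is HIST1H3E with 1 fragment behind its control cytosolic value.

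Histone mRNA was further toward the cytosol in knockdown than in control cells. The localization shift, log2 nuclear/cytosolic in knockdown minus control, had a median of -0.20 (-0.25 to -0.10) over the 51 loci and 0.00 over all loci. Of the 51 loci 40 were below 0, where 49.9% of all loci were. A shift of -1 or less was seen at 1 member, HIST1H3E (3.82% of all loci), and none was at 1 or more (3.28%). Lower in nuclear but higher in whole-cell and cytosolic RNA were 16 members, where 12.2% of all loci were. With counting error alone, 28 of 51 shifts lay below 0 by more than 1.96 estimated errors and 1 above, against 13.5% below and 14.3% above over the 10520 loci with an annotated length. Histone loci were counted more deeply, with a median estimated error of 0.08 against 0.17 for those loci, so these shares are not at equal depth. Past the same error in each preparation, 8 of 51 members were below 0 in nuclear and above 0 in cytosolic RNA (2.18% of those loci), and none ran the opposite way (2.07%). Other protein-coding loci spanning at most 1000 bases, 24 in all, had a median shift of -0.23, with 14 of 24 below 0, and the part of short length in the histone shift was not tested.

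The shift varied by class, a difference that could not be tested. All 13 H2A loci (median -0.28) and all 7 H3 loci (-0.20) were below 0, as were 9 of 11 H4 loci (-0.15), 2 of 4 H1 loci (-0.08) and 7 of 14 H2B loci (median 0.01). Of all loci 49.9% were below 0. The H3 count includes HIST1H3E, with few fragments, the single measurement behind HIST2H3A and HIST2H3C, and a locus at -0.0014. Near-identical copies are counted among the H2A loci too. The H2A count was 13 of 13 under every scaling, pseudocount and length correction tried. Among members at 5 FPKM or more the lowest shifts were -0.81 for the merged HIST1H2AD and HIST1H3D locus, -0.63 for HIST1H2AB and -0.52 for HIST1H2AI. The HIST1H2AD and HIST1H3D locus (chromosome 6, 26197068 to 26199521) had 85.3 FPKM in knockdown and 69.6 in control whole-cell RNA, 89.3 against 119.8 in nuclear RNA, and 176 against 135 in cytosolic RNA. It shares 98.8% of its windows with an overlapping transcript of another gene, AL031777.3. The highest were 0.26 for HIST2H2BC, 0.21 for HIST1H2BJ and 0.15 for HIST1H4A, each of which has an estimated counting error of 0.11 or more.

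Grouped by transcript structure, the median shifts ran from -0.21 to -0.17. Loci whose annotated transcripts run 200 bases or more past the stem-loop (20) had a median shift of -0.19, those with the stem-loop nearer the end (9) -0.18, and those with no match (22) -0.21. HIST1H2BN is among the 20 by its distant match. The 32 compact loci, spanning at most 1000 bases, had -0.21 and the 19 extended or merged loci -0.17. Members known to give polyadenylated transcripts had shifts of -0.21 (HIST1H1C), -0.17 (HIST1H2AC), -0.18 (HIST1H2BD), -0.01 (HIST1H2BK) and 0.03 (HIST2H2BE). These FPKM values do not separate stem-loop ends from polyadenylated ends.

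Histone variants, whose mRNAs are mostly polyadenylated and made outside S phase as well, differed less in their medians. Of 12 on the list 8 passed, with medians of 0.09 (whole-cell), 0.02 (nuclear) and 0.07 (cytosolic). Their median shift was -0.03, with 5 of 8 below 0 and 3 above. The shifts of H1FX (-0.35) and H2AFX (-0.18) were near or past the median of the histone members (-0.20), so a negative shift was not particular to those members. Their nuclear/cytosolic medians of -1.19 in knockdown and -1.05 in control cells were close to those of the histone members. The H3.3 gene H3F3B had 185 FPKM in knockdown and 138 in control whole-cell RNA (log2 ratio 0.42), and its partner H3F3A 217 and 199.5 (0.12). The linker variant H1FX had a ratio of 0.27 and the centromeric CENPA locus, merged with SLC35F6, 0.13, whereas H2AFZ was level at 0.00 and H2AFX at 0.07. H1F0 was below the minimum at no more than 0.0960 FPKM in any library.

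Factors that make and degrade histone mRNA had medians within 0.1 of the median of all loci in whole-cell RNA. The 17 genes of stem-loop processing had medians of 0.05, 0.04 and -0.03 in whole-cell, nuclear and cytosolic RNA. Of them 10 were above 0 in whole-cell RNA (60.7% of all loci). SLBP had 14.4 FPKM in knockdown and 13.8 in control whole-cell RNA, 15.3 against 15.9 in nuclear RNA, and 33.1 against 39.2 in cytosolic RNA. The U7 snRNP genes LSM10 and LSM11 had whole-cell ratios of -0.09 for each, and the largest of the list were CSTF2 (0.34), CASP8AP2 (-0.33), ZNF473 (0.32) and CPSF2 (0.32). The 17 genes of translation and decay had medians of 0.04, 0.07 and 0.05 (11 above 0 in whole-cell RNA), with XRN1, a 5′ exonuclease, at 0.60, DCP2 at 0.37, LSM5 at 0.36 and EXOSC9 at 0.28. The 9 transcription genes had medians of 0.05, -0.03 and -0.04, with 6 above 0 in whole-cell RNA. NPAT, the coactivator of histone genes, was at -0.07, and CDC25A (0.44), POU2F1 (-0.42), CCNE1 (-0.38) and CREBBP (0.32) were the largest. In the S-phase list UNG (0.83), MCM7 (0.35) and MCM2 (0.25) were among the largest, and in the 12 histone chaperones (medians 0.12, 0.10 and -0.04) ASF1A (0.35), CHAF1A (0.24), HIRA (0.20) and ATRX (0.18). HIRA was listed as a locus merged with C22orf39, so its value is not of HIRA alone.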

How the data were processed

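The authors deposited FPKM values, 1 column per library over 62828 loci, with hg19 coordinates; the unit was read from the values. Tools listed in the submitters' processing notes, without roles, are Cuffdiff 2.2.1, TopHat2 2.0.13, FastQC and CASAVA, beside the builds mm9 and hg19. How libraries were scaled, which annotation was used and whether counting used the strand is not given in the sources. Loci were analysed from a mean of 1 FPKM upward, and ratios are differences of log2(FPKM + 0.1). Fragment numbers and counting errors were estimated from the FPKM steps and locus lengths (compact loci by span, others by the mean length of GENCODE transcripts) and cover counting only. Shared sequence is the share of 100-base windows of GENCODE release 29 transcripts found in other genes. Whether preparations of a condition were separate cultures is not given.

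The members, the 6 comparison lists and the groupings were chosen with earlier results of these data known. Named are the 3 loci with the highest mean per class, the 3 highest and 3 lowest of each ratio at 5 FPKM or more, members known for polyadenylated forms, HIST4H4, and up to 4 genes per list. The 1.25-fold count, stem-loop, compact and pair groupings were added after values were seen. Calculations ran in Python 3.11.15 (pandas 2.3.3, numpy 2.4.6, scipy 1.17.1; plots with matplotlib 3.10.9), and the steps were tested on simulated data.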

Additional observations from a re-analysis of the deposited data

Results flagged for a closer look

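In 8 of 51 members the knockdown difference ran in opposite directions, below 0 in nuclear and above 0 in cytosolic RNA, each by more than 1.96 estimated counting errors; the difference between the preparations was not tested, as each is 1 library. The same pattern was seen at 2.18% of the 10520 loci with an annotated length, and its opposite at 2.07% of those loci and at 0 of 51 members; the histone loci were counted more deeply than those loci. The shifts were -0.81 for the merged HIST1H2AD and HIST1H3D locus, -0.44 for the merged HIST1H2AM and HIST1H3J locus, -0.37 for HIST1H4C, -0.34 for HIST1H2BN, -0.30 for HIST1H1E, -0.20 for HIST2H3A, -0.20 for HIST2H3C and -0.19 for HIST1H3B. In nuclear RNA their log2 knockdown/control ran from -0.42 to -0.08, and in cytosolic RNA from 0.10 to 0.38. The flag used the deposited values only. With 1 length correction for all libraries the nuclear median over the 51 loci moved from -0.03 to 0.02, and the flag was not recomputed. HIST2H3A and HIST2H3C share all their sequence windows and hold 1 measurement.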

How the results depend on the processing

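No paired analysis was possible because each group has 1 library, so the groups compared share no more than 1 replicate; the 3 preparations are different RNA and not replicates. The median shift was below 0 under every alternative tried (-0.24 to -0.15). The histone medians relative to all loci kept their sign in every preparation, scaling included. With no minimum mean the nuclear/cytosolic median was -1.09 in knockdown and -0.85 in control cells. Scaling to the protein-coding median gave 0.10 in whole-cell and -0.064 in nuclear RNA, and nuclear/cytosolic medians of -0.69 in knockdown and -0.51 in control cells. With the same total in every library, mitochondrial and small RNAs set aside, the whole-cell median was 0.11, and the nuclear/cytosolic median was -0.015 in knockdown and turned to 0.21 in control cells; these scalings move all loci alike. Chosen after seeing the data, 1 length correction for all libraries gave a nuclear median of 0.02 and a shift of -0.17, with 37 of 51 below 0. This correction changed compact histone loci alone and left every other locus as deposited. Leaving out members with 50% or more of their windows shared, also chosen then, gave a nuclear median of 0.01 and a shift of -0.15. The whole-cell median was then 0.14, against 0.06 over all loci. Depth limits HIST1H3E and HIST1H1T most.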
